A study of Mus musculus with 384 samples.

Results

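The amygdala libraries of this mouse brain series were examined for differences by the 2 labels that every library carries, a status label (MS or Co) and an injection label (inject or naive). The members were the 32 libraries labelled AMY, 1 per mouse, out of 380 libraries with values and 384 in the labels, and they fell into 4 label groups of 8 mice (Co naive, Co inject, MS naive and MS inject). All 32 mice were male Balb/c animals, and each AMY library was made from total RNA of a frozen micropunch. The labels spell out neither MS nor Co and do not say what was injected. They give an age of postnatal day 9, whereas the study's design describes adult mice that had been reared with limited bedding or with early handling and then lived with an ovariectomized female or under chronic social defeat. Nothing ties MS, Co, inject or naive to these conditions, so each difference below is a difference between labels only. The study's design has no group reared without manipulation, but whether this holds for the MS and Co mice is not known. The design also does not say which litter each mouse came from.

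The amygdala assigns threat and reward value to stimuli and passes it on to the hypothalamus and brain stem. Its neurons carry the glucocorticoid receptor, a transcription factor that is held by the HSP90 chaperone until it binds corticosterone, moves to the nucleus and changes the expression of target genes. One such target, Fkbp5, is a co-chaperone that lowers the receptor's affinity for its hormone and so closes a feedback loop. The assays measured here were chosen by the study largely as mouse orthologues of human genes whose response to glucocorticoids depends on genetic variants linked to major depressive disorder (MDD) or schizophrenia (SCZ).

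The 32 libraries were targeted RNA libraries with assays for 69 genes. A value is the number of reads of an assay divided by a size factor of the library, and all tests were made on log2(value + 1). Reads per AMY library, estimated from the steps between the values, ran from 46355 to 185412 with a median of 99570.5, the eleventh of the 12 region medians. A count of 3 reads, the upper limit that a value of 0 allows, corresponded to values of 2.17 to 7.81, and such limits cover counting error only, since amplified reads are not independent molecules. Reads per library did not differ detectably with status (MS minus Co 3321 reads, two-sided permutation test with 100000 resamples, p = 0.784) or with injection (inject minus naive -3343 reads, permutation p = 0.783). The number of assays at 0 did not either, with means of 6 in the MS and 7.12 in the Co libraries (permutation p = 0.247). Ferritin heavy chain, Fth1, took 26.7% to 39.9% of the reads of a library. That share was lower in MS (mean 31.8%) than in Co (mean 34.2%), with a permutation p of 0.0364. This p is unadjusted, and the status difference of the Fth1 value did not pass (limma, adjusted p = 0.915).

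The AMY label could be checked only in part. None of the neuron, astrocyte or oligodendrocyte markers of the lists used here has an assay on the panel, and the panel holds 1 of 7 microglia and myeloid markers (Lrrc25), 1 of 2 T cell markers (Zap70) and 3 of 6 vascular, meningeal and choroid plexus markers (Anxa2, Tmem176a and Lcn2). By 1 minus Pearson's r over the 69 assays, 10 of the 32 AMY libraries lay nearest to the mean of the AMY libraries, 10 nearest to the prefrontal cortex (PFC) mean, 7 nearest to the bed nucleus (BNST) mean, 3 nearest to the PVN mean, 1 to vCA1 and 1 to CER. In a bulk punch, fewer cells of a type and less RNA per cell cannot be told apart.

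The library of Co inject mouse 267 stood apart from the other AMY libraries. Its mean Pearson correlation with the others was 0.807, whereas the other 31 libraries had means of 0.858 to 0.921. With 50810 reads it was at 0 for AW209491, Abhd5 and Hmgxb3, and no other AMY library was at 0 for any of the 51 assays with a median of at least 100. The same library held the highest AMY values of Lcn2 (257), Zap70 (154) and Pitpnm2 (1086). Results that rest on this library are given with and without it.

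**Figure D1:**
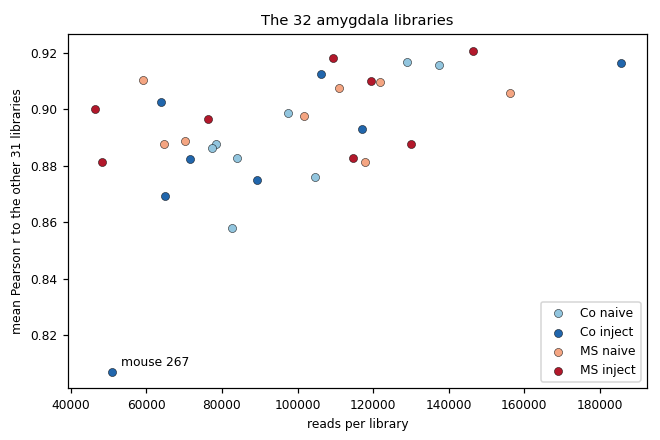
Reads per library (x axis) against the mean Pearson correlation of log2(value + 1) with the other 31 amygdala libraries (y axis), 1 point per mouse, coloured by label group. The 4 groups overlap along both axes, and the library of Co inject mouse 267 lies at 0.807, under the range of 0.858 to 0.921 of all others.

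Expression in the amygdala was led by Fth1, the iron-storing heavy chain of ferritin, with a median value of 43226 and a range of 31460.5 to 63301. Hsp90aa1, the inducible cytosolic HSP90 that holds the glucocorticoid receptor, followed with a median of 18691, and Rps12, a protein of the small ribosomal subunit, with 14828. At the other end, 6 assays had a median of 0. These were Lcn2, a secreted lipid-carrier protein of inflamed tissue (0 in 18 libraries), Nuak2, a kinase (0 in 28), Lrrc25, a membrane protein of myeloid cells (0 in 24), Zfp553 (0 in 18), Fan1, a DNA repair nuclease (0 in 20) and Tnf, the inflammatory cytokine (0 in 31). Among the 51 assays with a median of at least 100, the SD within label groups was smallest for Atp5f1 of the mitochondrial ATP synthase (0.14 on the log2 scale), Rps25 (0.20) and the ubiquitin ligase gene Nedd4 (0.21). It was largest for Hmgxb3 (1.59), AW209491 (1.57) and Abhd5 (1.36), the 3 assays at 0 in mouse 267. Without that mouse the SDs of these 3 were 0.95, 0.76 and 0.64, and they were no longer the 3 largest.

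The first comparison asked whether the MS and Co libraries differed, with 16 mice on each side. No gene passed the threshold of an adjusted p of 0.1 (0 of 69, 0%; limma with Benjamini-Hochberg adjustment, smallest adjusted p = 0.915), and 2 of 69 (2.90%) had an unadjusted p under 0.05. The differences were spread to both sides, with 39 genes higher and 30 lower in MS and a median difference of 0.04 on the log2 scale. These genes are described for their size only, because none passed the adjustment.

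The gene with the smallest p for status was Vhl, whose product is the substrate receptor of the ubiquitin ligase that removes hypoxia-inducible factors. The gene lies on chromosome 6 (113623959 to 113631633; all positions are whole genes of the GENCODE M21 annotation of mm10). Its values ran from 287 to 731 with a median of 513 in the 16 MS mice and from 209 to 709.6 with a median of 362 in the 16 Co mice. The ranges overlapped over nearly their full width, although 13 of 16 MS mice were above the Co median. The difference was 0.40 ± 0.17 (SE) on the log2 scale (limma, p = 0.0283, adjusted p = 0.915; permutation p = 0.0249). It was 0.33 between the naive groups and 0.47 between the inject groups.

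Slco3a1, an organic anion transporter on chromosome 7 (74275419 to 74554780), was the other gene under an unadjusted p of 0.05. Its values ran from 218 to 555 (median 348) in MS and from 47.5 to 564 (median 253) in Co, a difference of 0.43 ± 0.20 on the log2 scale (limma, adjusted p = 0.915). The lowest value belonged to Co inject mouse 235, and 13 of 16 MS mice lay above the Co median. Without single libraries the difference ranged from 0.28 (without mouse 235) to 0.49.

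The next genes by p were of low level or small change. Mknk2, a kinase of the translation initiation factor eIF4E, had medians of 41.0 in MS and 36.9 in Co with 3 Co libraries at 0 (difference 1.18 ± 0.61, limma, adjusted p = 0.915, and 0.63 with a pseudocount of 10). Fth1 had medians of 41327 in MS and 46391 in Co, a difference of -0.17 ± 0.09 with a 95% interval of -0.35 to 0.01, and 13 of 16 MS mice were under the Co median. Over the alternative ways of processing, the Fth1 difference ran from -0.17 to -0.10. Lrrc25, the myeloid gene, was at 0 in 14 MS and 10 Co libraries, and none of the 8 MS inject libraries had a read.

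The list of the glucocorticoid receptor and chaperones had 4 of its 12 genes on the panel, Nr3c1, Fkbp5, Hsp90aa1 and Cct7. Of these, Cct7 belongs to the chaperonin of actin and tubulin rather than to the receptor. None of the 4 had an unadjusted p under 0.05 for status, and their median difference of 0.12 stood beside 0.04 over all 69 genes. Nr3c1, the receptor itself, ran from 115 to 479.5 with a median of 249.7 in MS and from 12.5 to 373 with a median of 261 in Co, and the groups overlapped. Its difference was 0.18 ± 0.32 (limma, adjusted p = 0.915). The value of 12.5 belonged to Co naive mouse 255, while the other 7 Co naive mice lay between 186 and 373, and without mouse 255 the difference was -0.09. Hsp90aa1 differed by 0.02 with an interval of -0.20 to 0.24.

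Fkbp5, the co-chaperone induced by the receptor (chromosome 17, 28399094 to 28517527), showed the largest positive status difference of the panel. Its values ran from 0 to 146 in MS (median 67.6, 2 libraries at 0) and from 0 to 164 in Co (median 25.6, 3 libraries at 0). The medians by group were 20.9 in Co naive, 68.3 in Co inject, 60.5 in MS naive and 69.5 in MS inject, and the Co naive mice reached at most 54.5. The Co inject mice were spread widely, with 3 of 8 between 0 and 2.26. The MS minus Co difference was 2.11 between the naive groups and 1.00 between the inject groups. The difference of 1.56 ± 0.87 had an interval of -0.21 to 3.33 (limma, p = 0.0827, adjusted p = 0.915; permutation p = 0.0869), and 14 of 16 MS mice were above the Co median. The difference ranged from 1.23 to 1.96 when single libraries were left out, and it was 0.96 with a pseudocount of 10. In a fit with 5 principal components of the residuals as covariates the same difference passed the threshold (limma, adjusted p = 0.0752). These components leave the difference as it is and lower the residual spread by construction, here the SE from 0.87 to 0.42.

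**Figure D2:**
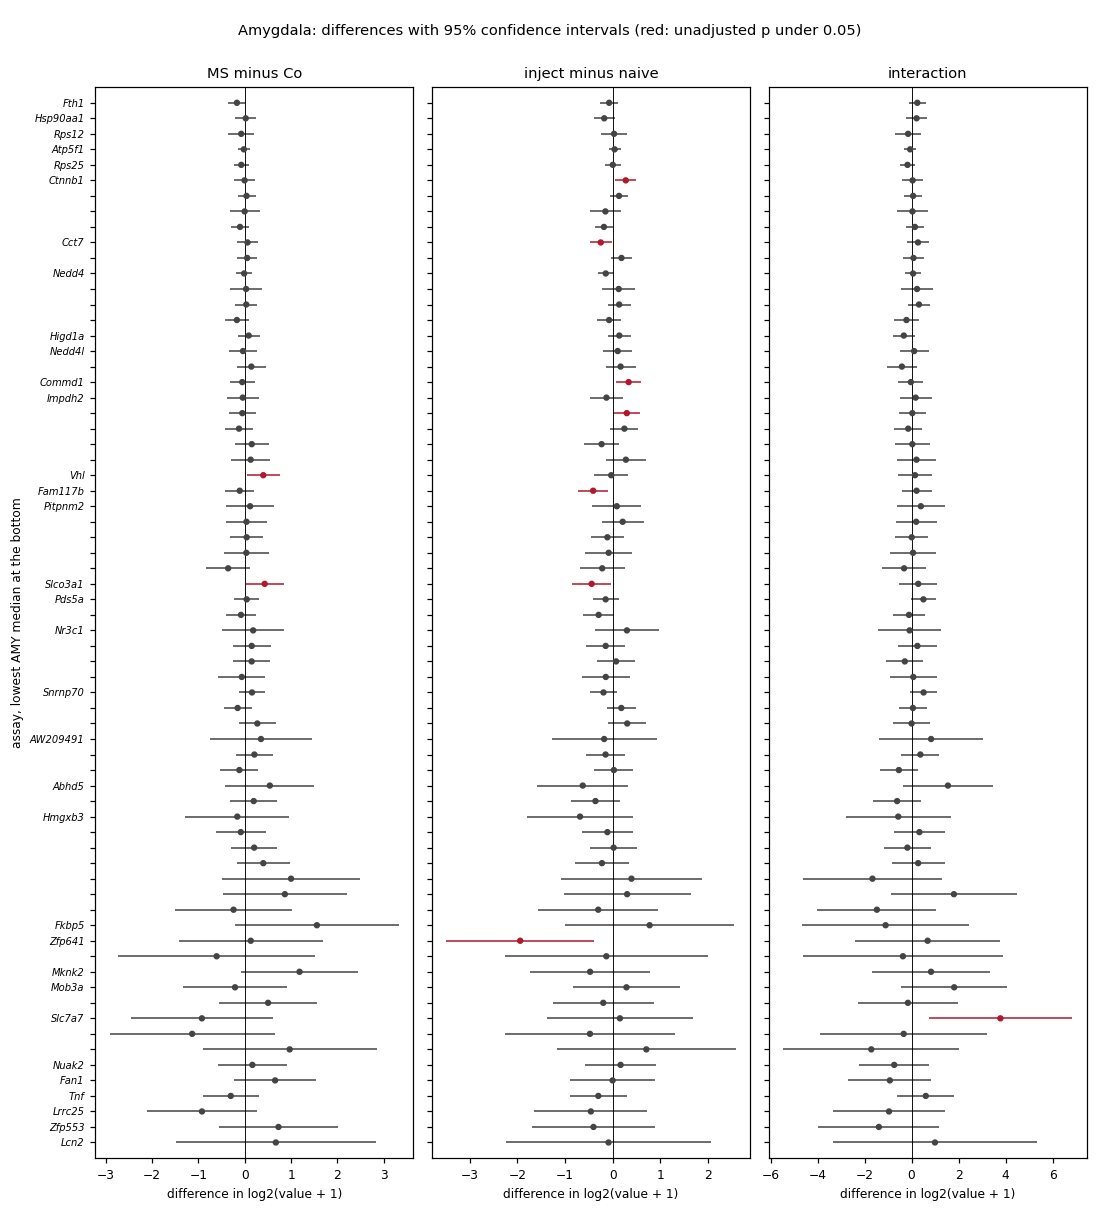
Differences in log2(value + 1) (x axis) for the assays (y axis, ordered by median, highest on top, the named genes labelled; 1 of the 69 is not shown), as MS minus Co, inject minus naive and the interaction; points are limma estimates from 32 libraries and lines their 95% confidence intervals, in red where the unadjusted p was under 0.05. Intervals widen toward the low assays at the bottom, and 2, 7 and 1 assays are red in the 3 panels. The x axes differ between panels.

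The second comparison asked whether the inject and naive libraries differed. Again no gene passed the adjusted threshold (0 of 69, 0%), but the smallest adjusted p was 0.283 and 7 of 69 genes (10.1%) had an unadjusted p under 0.05, of which 3 were higher and 4 lower in inject. Over all genes, 30 were higher and 39 lower, with a median of -0.08.

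The 3 genes that were higher in inject were Ctnnb1, Commd1 and Cul2. Ctnnb1, the gene of beta-catenin (chromosome 9, 120929216 to 120960507), ran from 3918 to 6873 with a median of 4805 in inject and from 2807 to 5746 with a median of 4026 in naive. The ranges overlapped, and 14 of 16 inject mice were above the naive median. Its difference was 0.28 ± 0.11 (limma, p = 0.0164, adjusted p = 0.283; permutation p = 0.0104), with 0.25 in Co and 0.30 in MS. Commd1, a protein of copper transport and NF-kappaB turnover that acts through cullin ubiquitin ligases (chromosome 11, 22896136 to 22982382), ran from 544 to 1107 (median 793) in inject and from 351 to 828 (median 621) in naive. Its difference was 0.34 ± 0.13 (limma, adjusted p = 0.283), with 0.35 in Co and 0.32 in MS, and 12 of 16 inject mice were above the naive median. Cul2, the cullin scaffold on which Vhl acts, differed by 0.30 ± 0.14 (limma, adjusted p = 0.428), with medians of 804 in inject and 679 in naive.

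Of the 4 genes that were lower in inject, Fam117b (chromosome 1, 59913006 to 59985346) had the smallest p of the comparison. It ran from 167 to 697 (median 413) in inject and from 398 to 729 (median 513) in naive, and 13 of 16 inject mice lay under the naive median. The difference was -0.41 ± 0.16 (limma, p = 0.0135, adjusted p = 0.283; permutation p = 0.00961), with -0.51 in Co and -0.30 in MS. Cct7, a subunit of the cytosolic chaperonin that folds actin and tubulin, ran from 1096 to 2704 (median 1433) in inject and from 1165 to 2583 (median 1793) in naive, a difference of -0.25 ± 0.11 (limma, adjusted p = 0.411). Slco3a1 had medians of 249.9 in inject and 342 in naive and differed by -0.44 ± 0.20 (adjusted p = 0.411), and by -0.29 without Co inject mouse 235. Zfp641, a zinc finger gene, was at 0 in 5 inject libraries and in no naive library, with medians of 34.8 and 52.6. Its difference was -1.94 ± 0.76 (limma, adjusted p = 0.283), and -0.97 with a pseudocount of 10 in place of 1.

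For injection, Nr3c1 again gave a wide estimate and Hsp90aa1 a narrower one, and both intervals included 0. Nr3c1 had medians of 256 in inject and 261 in naive, and its difference of 0.30 ± 0.32 (limma, adjusted p = 0.791) was 0.03 without mouse 255. Hsp90aa1 had medians of 17462 and 20145 and differed by -0.18 ± 0.11, with an interval of -0.40 to 0.05 (limma, adjusted p = 0.614). Without single libraries its difference ran from -0.22 to -0.13. Fkbp5 differed by 0.78 ± 0.87 (limma, adjusted p = 0.791), with 1.33 in Co and 0.22 in MS. Without single libraries the difference ran from 0.39 to 1.18, the latter without MS inject mouse 85, which was at 0. The difference in MS less that in Co was -1.11 with mouse 85 and -0.31 without it.

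**Figure D3:**
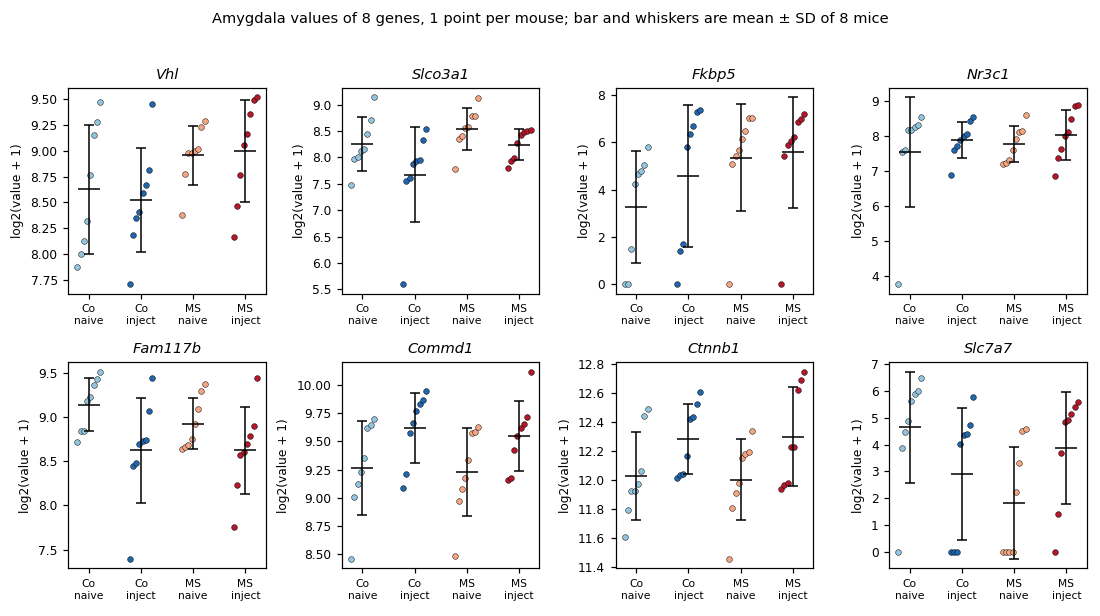
Values of 8 genes on the log2(value + 1) scale (y axis) in the 4 label groups (x axis), 1 point per mouse in ascending order within a group, with the mean and SD of 8 mice. The groups overlap in every panel; the single low points are Slco3a1 in Co inject mouse 235 (47.5) and Nr3c1 in Co naive mouse 255 (12.5), and points at 0 are libraries without a read of Fkbp5 or Slc7a7.

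The third comparison asked whether the difference between inject and naive depended on status. The interaction, taken as the inject minus naive difference in MS less that in Co, passed the adjusted threshold for no gene (0 of 69, 0%; smallest adjusted p = 0.932), and 1 of 69 (1.45%) had an unadjusted p under 0.05. That gene was Slc7a7, a transporter of cationic amino acids (chromosome 14, 54369442 to 54417780). Its median was 38.2 in Co naive, 17.3 in Co inject, 1.84 in MS naive and 28.4 in MS inject, and 1, 3, 4 and 1 libraries of these groups were at 0. The inject minus naive difference was -1.74 in Co and 2.04 in MS, an interaction of 3.78 with a 95% interval of 0.72 to 6.84 (limma, adjusted p = 0.932). The group medians of its reads were 28.5, 12, 1.5 and 15 in the same order, and the estimate was 5.82 with a pseudocount of 0.1 and 1.85 with a pseudocount of 10. With 5 principal components of the residuals as covariates it passed the threshold (limma, adjusted p = 0.00707). Such covariates lower the residual spread by construction and leave the estimate unchanged.

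The other interactions among the 6 with the smallest p had wide intervals that included 0. Pds5a, a regulator of cohesin, had an interaction of 0.50 ± 0.27 (limma, adjusted p = 0.932), and Snrnp70 of the U1 splicing particle had 0.51 ± 0.28 (adjusted p = 0.932). In both genes the inject mice were lower than the naive mice in Co (-0.40 and -0.45) and the difference in MS was small (0.10 and 0.06). Snrnp70 rested in part on Co inject mouse 247, the lowest library at 60.02, and its interaction was 0.31 without it. Abhd5, the activator of the lipase that breaks down stored triglycerides, had 1.55 ± 0.94 with mouse 267 and 0.69 without. Of the other genes at 0 in that library, which were not among these 6, Hmgxb3, a gene of an HMG box protein, had -0.57 with it. Without it Hmgxb3 had -1.47, with an interval of -2.87 to -0.08 that excluded 0 before adjustment (limma, adjusted p = 0.908). AW209491 had 0.83 with mouse 267 and -0.14 without. Mob3a, of a family of kinase activators, had 1.81 ± 1.11 (adjusted p = 0.932), 1.15 without Co inject mouse 243 and 1.00 with a pseudocount of 10. Higd1a, a mitochondrial protein induced by hypoxia, had group medians of 736 in Co naive, 844 in Co inject, 869 in MS naive and 875 in MS inject. Its interaction was -0.33 ± 0.23 with an interval of -0.81 to 0.14 (limma, adjusted p = 0.932), and the sign stayed negative in all 32 fits that left out 1 library, between -0.41 and -0.24.

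How large a change these libraries could have missed depended on the level of the assay. For status, the 95% interval lay within a 2-fold change in 50 of 69 genes and within a 1.5-fold change in 36. For injection the counts were 51 and 31. The interaction was less precise, with 28 genes within a 2-fold and 8 within a 1.5-fold change. For the 51 assays with a median of at least 100, the median half-width of the status interval was 0.34 on the log2 scale, and for the 18 lower assays it was 1.31. A 2-fold change was therefore inside the interval for most of the low assays, which include Fkbp5, Slc7a7, Zfp641 and Mob3a.

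Grouped by function, each of these lists held at most 1 gene with an unadjusted p under 0.05 per term and none that passed the adjustment. Over all 69 genes, 10.1% were under 0.05 for injection and 1.45% for the interaction, with 30 higher and 39 lower in inject, so for injection a count of 1 in the lists of 7, 9 or 10 genes described here is near the background. Among 7 ubiquitin and proteasome genes (Psmb3, Ube2g2, Peli1, Stambpl1, Commd1, Nedd4 and Nedd4l), 1 had an unadjusted p under 0.05 for injection, 5 were higher and 2 lower in inject, and the median was 0.17 beside -0.08 over all genes. This list does not hold Cul2 (under 0.05 for injection) or Vhl (under 0.05 for status), which also serve ubiquitin ligases. All 7 had status intervals within a 1.5-fold change. Of 10 genes of transcription, chromatin and splicing, 9 were lower and 1 higher in inject, with a median of -0.15, and Zfp641 alone was under 0.05. The 9 signalling and cell cycle genes had a median of 0.19 for injection, with 7 higher and Ctnnb1 under 0.05. The 5 mitochondrial genes (Atp5f1, Higd1a, Timm23, Mrpl54 and Ociad2) all had status and injection intervals within a 1.5-fold change. The mitochondrial and the ubiquitin and proteasome genes all have medians of at least 100. Of the 51 such assays, 36 were within a 1.5-fold change for status and 31 for injection. Of the 18 lower assays, 0 were for either term. Of the 9 immune and injury genes none was under 0.05 for either main term, and Slc7a7 was for the interaction.

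The lists of genes linked to the 2 disorders, which the study chose from human data, gave similarly small counts. Of 20 MDD orthologues, 1 was under an unadjusted p of 0.05 for status (Slco3a1) and 3 for injection (Commd1 higher, Cct7 and Slco3a1 lower), with medians of -0.05 and -0.08. Of 35 SCZ orthologues, 0 were under 0.05 for status and 2 for injection (Fam117b and Zfp641, both lower), with medians of 0.12 and -0.13. Over all 69 genes the shares were 2.90% and 10.1%.

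Across the 32 mice, some pairs of the well-measured genes varied together. After the label group means had been removed, 1275 pairs of the 51 assays with a median of at least 100 were compared, and 137 pairs (10.7%) passed an adjusted p of 0.1 for Pearson's r, of which 69 were positive. By both Pearson and Spearman 101 pairs (7.92%) passed, 48 positive and 53 negative. When the libraries were rescaled to the same total, 122 pairs passed and 87 of them were positive, so the balance of signs depended on the scaling. Without mouse 267 the count was 124, and with the first 2 principal components of these values removed 27 pairs passed.

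Fscn1, which bundles actin filaments in growing processes (chromosome 5, 142960343 to 142973185), had the most partners before reads per library were taken into account, 17 of the 101 pairs. It varied together with Psmb3, a subunit of the proteasome core (r = 0.73, rho = 0.72, adjusted permutation p = 0.00425 and 0.00319), with Cct7 (r = 0.72, rho = 0.72) and with Polr2i, a subunit of RNA polymerase II (r = 0.70, rho = 0.74). It ran opposite to Stambpl1, a deubiquitinating enzyme (r = -0.72, rho = -0.73, adjusted permutation p = 0.00425 and 0.00319), and to Cul2 (r = -0.62, rho = -0.67). Without the 2 mice farthest from the Fscn1 median, r was 0.66 with Psmb3, 0.74 with Polr2i and -0.76 with Stambpl1. Fscn1 values ran from 131 to 711, and no label group lay apart from the others. Psmb3 and Polr2i had 15 partners each, Rps12 had 12, and Stambpl1, Cct7 and Cul2 had 10 each. Rps12 stood on the side of Cul2 (r = 0.68, rho = 0.69) and Commd1 (r = 0.66, rho = 0.69) and against Nedd4l (r = -0.68, rho = -0.69).

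Nr3c1 took part in 1 of the 101 pairs, with Fscn1 (r = -0.52, rho = -0.67, adjusted permutation p = 0.0399 and 0.00695). Hsp90aa1 had 5 partners, rising with the neutral amino acid transporter Slc6a15 (r = 0.59, rho = 0.63) and running opposite to Cd47, Dpm2, St6galnac4 and Stambpl1. Of the genes that led the injection comparison, Ctnnb1 and Cul2 varied together (r = 0.54, rho = 0.56), as did Commd1 and Cul2 (r = 0.47, rho = 0.55), and both Ctnnb1 (r = -0.59, rho = -0.61) and Cul2 (r = -0.47, rho = -0.59) ran opposite to Cct7. These correlations are within label groups.

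Some of these genes moved with the number of reads of the library, although the values had been divided by a size factor. Of the 51 genes, 15 passed an adjusted p of 0.1 for both r and rho with log2 reads. Cct7 (r = -0.30), Cul2 (r = 0.29), Ctnnb1 (r = 0.25) and Commd1 (r = 0.26) were not among them. Fscn1 was lower in libraries with more reads (r = -0.55, rho = -0.59 with log2 reads, adjusted permutation p = 0.0169 and 0.0117 over 51 genes; r = -0.48 without the 2 mice farthest from the Fscn1 median), as were Polr2i (r = -0.54, rho = -0.54) and Psmb3 (r = -0.48, rho = -0.49). Rps12 (r = 0.62, rho = 0.56) and Nr3c1 (r = 0.43, rho = 0.56) were higher in libraries with more reads. With log2 reads removed from each gene, 78 pairs passed for Pearson's r, and 61 of the 101 pairs were among them with the same sign. Fscn1 kept Psmb3 (r = 0.63), Cct7 (r = 0.70), Polr2i (r = 0.58) and Stambpl1 (r = -0.66), and in all 9 of its 17 pairs passed. The other 8 did not, among them Rps12 (r = -0.45), Ociad2 (r = 0.37) and Nr3c1 (r = -0.38, adjusted p = 0.229). Counted over the 101 pairs, Psmb3 then had the most partners, 11 of its 15. Of the pairs among genes that led the injection comparison, Ctnnb1 with Cul2 (r = 0.50) and with Cct7 (r = -0.56) passed, whereas Commd1 with Cul2 (r = 0.42) and Cct7 with Cul2 (r = -0.42) did not.

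**Figure D4:**
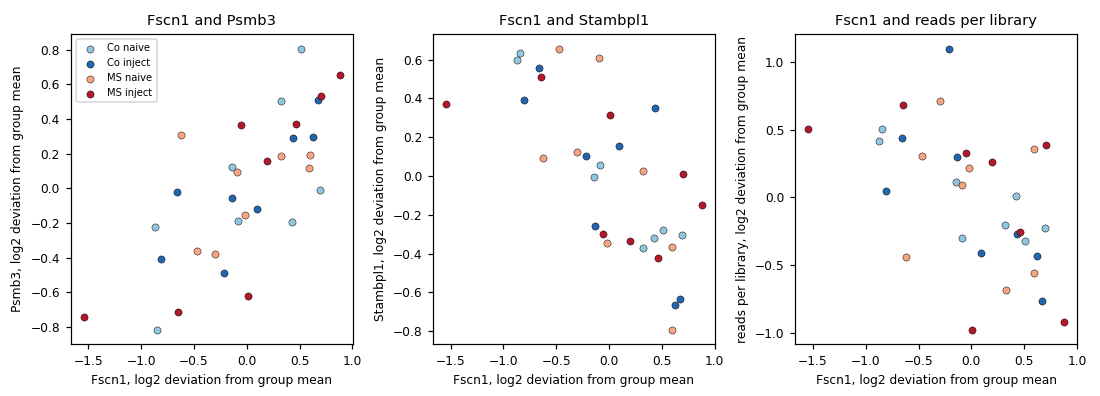
Deviations of Fscn1 from its label group mean on the log2 scale (x axes) against those of Psmb3, of Stambpl1 and of log2 reads per library (y axes), 1 point per mouse, 32 mice. Fscn1 rises with Psmb3 (r = 0.73) and falls with Stambpl1 (r = -0.72) and with reads (r = -0.55), in all 4 label groups together.

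The amygdala was then set against the bed nucleus of the stria terminalis, a part of the extended amygdala, and against the prefrontal cortex, to which it is closely wired. Reads per library were similar, with medians of 99570.5 in AMY, 99713 in BNST and 94437 in PFC. Against the 31 BNST libraries, 6 of 69 genes (8.70%) differed in level, 3 higher (4.35%) and 3 lower (4.35%) in AMY, and 10 (14.5%) had an unadjusted p under 0.05. Pitpnm2, a phosphatidylinositol transfer protein, was higher in AMY (median 380.1, range 145 to 1086) than in BNST (median 267, range 57.0 to 608) by 0.72 on the log2 scale (95% interval 0.34 to 1.10, limma, adjusted p = 0.0188). Mob3a was higher by 1.43 (interval 0.40 to 2.46, adjusted p = 0.0840), with medians of 38.1 and 21.8, and Nedd4l, a ubiquitin ligase of ion channels, by 0.33 (adjusted p = 0.0530), with medians of 800.2 and 723. Slco3a1 was lower in AMY by 0.49 in size (interval -0.75 to -0.22, adjusted p = 0.0188), with medians of 313 and 433. Impdh2, the rate-limiting enzyme of guanine nucleotide synthesis, was lower with medians of 750.4 and 914 (difference -0.31, adjusted p = 0.0299), and Fth1 with 43226 and 50673.5 (difference -0.23, adjusted p = 0.0260). Ranges overlapped for all 6 genes.

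The calls of this list depended on the scaling. After rescaling to the same total, the median of all 69 differences moved from -0.000677 to 0.13, and 8 genes passed, all 8 higher in AMY. Pitpnm2, Mob3a and Nedd4l were among these 8. Fth1, Impdh2 and Slco3a1 no longer passed, with differences of -0.10, -0.18 and -0.35 (adjusted p = 0.171, 0.228 and 0.112) that kept their sign.

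Against the 32 PFC libraries no gene differed in level (0 of 69, 0%; smallest adjusted p = 0.815), and 3 (4.35%) had an unadjusted p under 0.05, led by Vhl (AMY higher by 0.37, interval 0.08 to 0.65). The effects of the labels themselves were also set against those in the other regions. The status effect differed from that in BNST for 0 of 69 genes (0%, smallest adjusted p = 0.155; 7 or 10.1% at an unadjusted p under 0.05), the injection effect for 0 (4 or 5.80% unadjusted) and the interaction for 0 (3 or 4.35% unadjusted). Against PFC the counts were 0 for status (2 or 2.90% unadjusted), 0 for injection (10 or 14.5% unadjusted) and 0 for the interaction (4 or 5.80% unadjusted). The gene closest to a difference in the injection effect against PFC was Fam117b (-0.72, interval -1.22 to -0.23, limma, adjusted p = 0.208), and it was also among the 4 against BNST (-0.55, interval -1.03 to -0.07). For Higd1a the interaction differed from that in PFC by -0.72 (interval -1.36 to -0.08, adjusted p = 0.762).

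**Figure D5:**
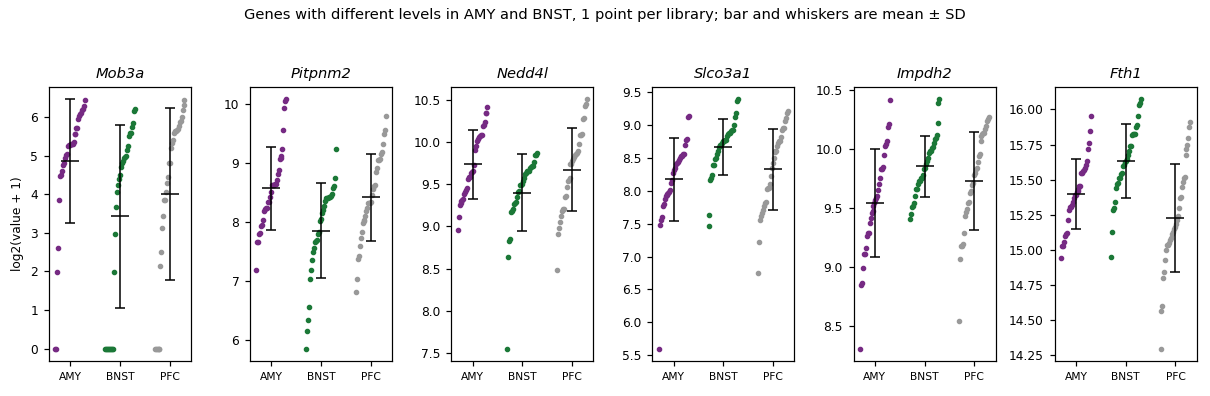
Values of the 6 genes that differed in level between AMY and BNST, on the log2(value + 1) scale (y axis), in AMY (32 libraries), BNST (31) and PFC (32), 1 point per library in ascending order with the mean and SD. Mob3a, Pitpnm2 and Nedd4l sit higher and Slco3a1, Impdh2 and Fth1 lower in AMY than in BNST, with overlapping points in every panel; the 3 lower genes did not pass after rescaling to the same total.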

How the data were processed

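Targeted RNA libraries (TruSeq Targeted RNA, MiSeq) of 12 brain regions of 32 mice were deposited as a matrix of 69 assays; the 32 AMY libraries were used here, with 31 BNST and 32 PFC libraries for comparison. The deposited values are a signal, reads per assay divided by a size factor per library. The authors filtered reads (PRINSEQ lite 0.20.4), mapped them to the assay manifest (BWA 0.7.12) and took size factors from DESeq2. The submitters' processing notes name mm10. The surrogate variables of the study are not removed from the values, and assays under its read minimum of 2000 are still listed. Within 0.1 of a step, all values are whole multiples of a step fitted to the low values of each library. Reads, and limits of 3 reads, were computed from these steps and are estimates, since the panel is too small for an independent check of them. For that reason the planned count models were not run.

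Label groups came from the sample titles. limma 3.58.1 (R 4.3.3) was fitted to log2(value + 1) with status, injection and their interaction, with Benjamini-Hochberg adjustment over 69 assays and a threshold of 0.1, the study's rate. Intervals are 95%. Region comparisons used the AMY and the other region's libraries with region terms. Single values and correlations were tested by two-sided permutation (100000 resamples), correlations after removal of group means; they are plain, not partial, correlations. Named genes were the 6 with the smallest p of each term, 3 fixed genes (Nr3c1, Hsp90aa1 and Higd1a), those with extreme medians or SDs, and up to 3 per direction that differed in level from another region. Cul2, Fscn1 and the correlated genes were chosen after their values were seen. The members and gene lists were chosen with earlier results of these data known. Mouse numbers pair regions of the same animal; the median correlation of same-mouse deviations was 0.0038 with BNST (31 mice) and 0.0508 with PFC (32 mice). The steps were tested on simulated data. One gene of the panel is not reported here. Extraction and plate are not in the labels, so batches could not be examined. p-values within AMY measure the spread between these mice, with that of punch and library included. In the region comparisons, libraries of the same mouse entered as independent, except in the fits with a replicate block. Other steps used Python 3.11.15 with scipy 1.17.1, numpy 2.4.6, matplotlib 3.10.9 and pandas 2.3.3.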

Additional observations from a re-analysis of the deposited data

Results flagged for a closer look

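Single libraries far from the other 7 of their label group were looked for in 35 measures (33 named genes on the log2 scale, reads per library and the mean correlation with other libraries) over 140 groups. By chance about 1 in 20 groups would be marked, that is about 7, and 21 were. The 2 counts cannot be set against each other as a test, since some genes had been named for a large spread or for a median of 0, and in such genes single libraries stand apart more readily.

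In Co inject mouse 267, AW209491, Abhd5 and Hmgxb3 were at 0 while the other Co inject mice lay between 111 and 599, 59.4 and 320.4, and 126 and 173, and the mean correlation with the other AMY libraries was 0.807 against at least 0.869. In Co naive mouse 255, Nr3c1 was at 12.5 while the others lay between 186 and 373. Low values also stood apart for Slco3a1 in Co inject mouse 235 (47.5, others from 187), Snrnp70 in Co inject mouse 247 (60.02, others from 140.1) and in MS naive mouse 91 (129, others from 205), and Abhd5 in MS naive mouse 101 (49.7, others from 113). Mob3a was at 2.95 in Co naive mouse 253 and at 0 in Co inject mouse 243. Values of 0 stood apart for Fkbp5 in MS naive mouse 87 and MS inject mouse 85, for Mknk2 in Co naive mouse 241 and for Slc7a7 in Co naive mouse 251.

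Values above groups otherwise at or near 0 were 5.57 for Fan1 in Co naive mouse 239, 7.95 for Nuak2 in Co inject mouse 237, 18.5 for Nuak2 in MS naive mouse 87, 5.31 for Nuak2 in MS inject mouse 97, 27.2 for Tnf in Co naive mouse 259 and 36.3 for Zfp553 in Co inject mouse 233. The Fan1 value corresponded to 3 reads, the upper limit that a value of 0 allows.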

How the results depend on the processing

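The counts of 0 for status, injection and interaction stayed 0 with pseudocounts of 0.1 and 10, a mean of at least 10, 2000 reads over all libraries, the 50 orthologues with that many reads, rescaled totals, a threshold of 0.05 and in all 32 fits without 1 library (0 to 0 calls; unadjusted p under 0.05 in 0 to 4, 4 to 9 and 1 to 3 genes). They also stayed 0 in 2 alternatives chosen after seeing the data, assays at 0 in no AMY library and log2 reads as a covariate. With 5 principal components of the residuals, 1 gene passed for status (Fkbp5, 1.56, adjusted p = 0.0752, up to 0.958 over all other fits), 0 for injection and 1 for the interaction (Slc7a7, 3.78, adjusted p = 0.00707, up to 0.980 over all other fits), and 8, 8 and 3 genes had an unadjusted p under 0.05. Such components leave the differences as they are and lower the residual spread by construction. Of the 137 correlated pairs, 27 were left with 2 principal components removed and 78 with log2 reads removed, the latter chosen after seeing the data. The 6 genes with the smallest p for each term kept their sign for that term in every fit that held them. Other named genes did not, such as Nr3c1 for status (-0.09 without mouse 255) and AW209491 for the interaction (-0.14 without mouse 267). With mouse number as a replicate block, AMY against BNST gave 6 calls, the same 6 genes, AMY against PFC 0, and the block changed no call on a difference of effects. By Euclidean distance 9 libraries lay nearest to the AMY mean and 11 nearest to the PFC mean. The covariate for assays with 2 separate ranges could not be built, since no AMY assay with a median of at least 100 had a gap over 1 on the log2 scale with at least 4 libraries on each side (assays with lower medians did, such as Fkbp5 and Zfp641, but the rule leaves them out), and edgeR and DESeq2 fits were not run. Depth limits the 18 assays with medians under 100.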
